A study of Mus musculus with 12 samples.

Results

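Livers of Keap1-hepatocyte knockout (Keap1-HKO) mice were compared with livers of Nrf2-null mice, which set the highest Nrf2 activity of the series against no Nrf2 at all. The comparison held 6 of the 12 arrays, 3 Keap1-HKO and 3 Nrf2-null, and they were chosen by their genotype label and by no measured value. Nrf2-null mice lack Nrf2 in every tissue. Keap1-HKO mice carry the Keap1-knockdown (Keap1-KD) alleles, which lower Keap1 in all cells, together with a Cre transgene (AlbCre+) that is active in hepatocytes alone, so that the other cells of these livers are knocked down and not knocked out. The groups thus differed in 2 genes and in the cells that were changed, and the comparison cannot separate loss of Nrf2 from loss of Keap1. All mice were naïve 8-week-old males on a C57BL/6 background, with 1 array per mouse. The remaining arrays, 3 wild-type and 3 Keap1-KD, entered the fit to estimate the spread between mice of 1 genotype, and they were used to see where wild-type livers lay within the span.

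Nrf2, encoded by Nfe2l2, is a transcription factor that binds antioxidant response elements with small Maf proteins as partners. Keap1 holds Nrf2 in the cytosol and hands it to a ubiquitin ligase, so that Nrf2 protein is normally short-lived, and it accumulates when Keap1 is lost or its cysteines are modified by electrophiles. In liver the pathway is best known for enzymes that reduce and conjugate reactive chemicals, for the supply of glutathione and NADPH, and for transporters that export conjugates.

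The values were log2 intensities of Affymetrix probe sets, and an intensity of 100, the level that a probe set had to pass in at least 1 genotype to be kept, is 6.64 on this scale. Where a genotype mean lay under 100, a fold was therefore given as a bound against 100 ("at least"), taken from log2 means. Arrays limit precision by their number, here 3 per group.

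The 6 arrays were not alike in quality or content. The mean absolute distance of an array's genes from the other 2 arrays of its genotype was 0.901 for Keap1-HKO replicate 1 and 0.58 for Nrf2-null replicate 1 on the log2 scale, while it was between 0.147 and 0.561 for the remaining 10 arrays. Wild-type and Keap1-KD arrays were closest to their groups, at 0.147 to 0.226, against 0.323 or more for every Nrf2-null and Keap1-HKO array. The first replicates deviated alike: 698 genes were lower by over 1 on the log2 scale in both of them than in the other replicates of their genotype, and 26 were higher. Pancreatic acinar markers all lay over 100 on Keap1-HKO replicates 2 and 3. On the other arrays 13 or 14 of the 15 lay under it, the exceptions being Cela1, an elastase, which read 8.70 to 10.29 there, and Reg1, which read 6.98 on Nrf2-null replicate 2. The 15 measured markers summed to intensities between 522 and 229262 on the Keap1-HKO arrays and between 1154 and 1368 on the Nrf2-null arrays, and Prss2, a trypsinogen, read 3.52, 14.25 and 11.17 on the 3 Keap1-HKO arrays. Skeletal muscle markers (8 measured) were high on the same Keap1-HKO arrays and on 1 wild-type array, with Acta1, skeletal actin, at 4.09, 12.75 and 11.23 on the Keap1-HKO arrays, and all 8 lay under 100 on every Nrf2-null array. No acinar or muscle marker was called in the comparison. On Keap1-HKO replicate 1 all 8 muscle markers and 14 of the 15 acinar markers lay under 100, Cela1 being the exception. At an unadjusted p under 0.05, 13 of the 15 acinar and 6 of the 8 muscle markers passed, and by Duncan's test, the method of the study, 2 and 0. Of all 5856 genes, 583 higher and 711 lower ones had such a p, and Duncan's test called 401 higher and 449 lower. Without the first replicate of both genotypes 15 of 15 acinar and 7 of 8 muscle markers were called higher. In this setting both Keap1-HKO arrays that remain hold these transcripts at high levels, and the main fit holds the same arrays. Where the transcripts came from was not tested. Genes that follow these markers over the 12 arrays (37 genes, r over 0.9) were therefore also left out as an alternative.

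**Figure D1:**
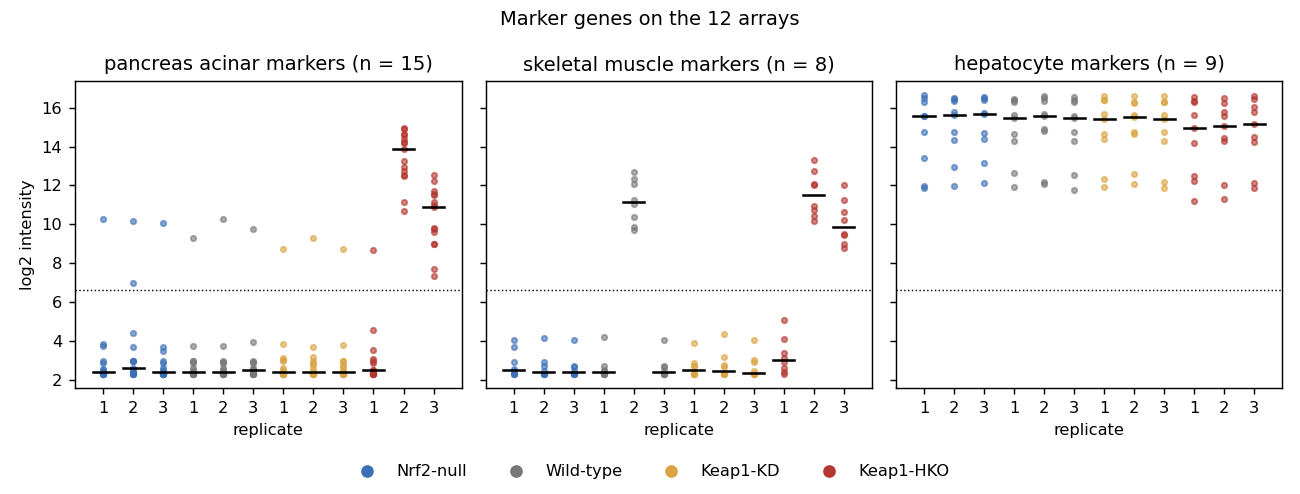
Log2 intensity of each marker gene (points) and the median of its list (bars) on the 12 arrays, for pancreatic acinar, skeletal muscle and hepatocyte lists, with an intensity of 100 as the dotted line. All acinar markers lay over 100 on Keap1-HKO replicates 2 and 3 and all but 1 or 2 of the 15 (Cela1, and Reg1 on Nrf2-null replicate 2) under it elsewhere, all muscle markers lay over 100 on these arrays and wild-type replicate 2, and hepatocyte markers were high on every array.

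The targeted genes followed the labels on every array. Nfe2l2 read 2.46, 2.29 and 2.29 in Nrf2-null livers and 8.11, 7.93 and 8.54 in Keap1-HKO livers, at least 2.93-fold higher in the latter (log2 difference 5.85, standard error 0.17, adjusted p = 9.54e-09). Keap1 read 8.07, 7.67 and 7.72 in Nrf2-null livers and 3.34, 3.39 and 3.34 in Keap1-HKO livers, at least 2.26-fold lower (log2 difference -4.47, standard error 0.15, adjusted p = 2.61e-08). Neither pair of groups overlapped. The liver label held too, since all 9 hepatocyte markers lay over 100 on every array. Their summed intensity was 420780 to 443762 on the Nrf2-null arrays and 357924 to 397294 on the Keap1-HKO arrays, and 3 of them, fibrinogen Fgb, tyrosine aminotransferase Tat and apolipoprotein Apoa1, were called lower. This count of 3 was 1 without Keap1-HKO replicate 2 or 3 or Nrf2-null replicate 1 or 3.

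Of 5856 genes tested, 264 were called higher and 271 lower in Keap1-HKO than in Nrf2-null livers (limma over all 12 arrays, adjusted p under 0.05), which is 4.51% and 4.63% of the genes. The median of all genes was -0.05 on the log2 scale. The rises were larger than the falls: among called genes the median log2 difference was 1.18 for the higher and -0.92 for the lower, and 162 rose and 124 fell at least 2-fold. Of the risen genes 29.5% lay under an intensity of 100 in Nrf2-null livers, against 7.68% of all genes, and 24.4% of the fallen genes lay under it in Keap1-HKO livers, against 8.18% of all genes. All 3 Keap1-HKO arrays lay above all 3 Nrf2-null arrays for 546 genes (9.32%) and below them for 648 (11.1%), and 534 of the 535 called genes were among these. Without the first replicate of both genotypes 522 genes were called higher and 700 lower, 20.9% of the genes in all, and 510 of these were called in the same direction with all arrays. When the fit held the 6 arrays alone it called 73 and 37 genes, and it kept 70 of the 158 calls among genes named in this report. Cd36, Nr1i3, Gpx4, Txn1 and Gss were among those that lost their call there (adjusted p = 0.0966, 0.0615, 0.0993, 0.105 and 0.062). Calls given below without a limit were thus not all kept with the 6 arrays alone. The lower calls fell to 176, 147 and 162 without Keap1-HKO replicate 3, Nrf2-null replicate 2 and Nrf2-null replicate 3 and numbered 497 without Keap1-HKO replicate 1, and the higher calls fell to 168 without Nrf2-null replicate 3.

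The 15 largest rises ran from 10.61 to 4.74 on the log2 scale and included enzymes that reduce or conjugate chemicals and transporters. Cbr3, a carbonyl reductase, read 3.35, 3.47 and 2.88 in Nrf2-null livers and 14.30, 13.54 and 13.68 in Keap1-HKO livers, at least 147-fold higher (log2 difference 10.61, standard error 0.25, adjusted p = 3.96e-09). Gstm3, a mu-class glutathione transferase, read 7.10, 6.75 and 6.36 against 14.61, 14.37 and 14.59, a 220-fold difference of log2 means (7.78 on the log2 scale, standard error 0.42, adjusted p = 1.49e-06). Both genes thus went from the edge of detection or below it to bright signals on every Keap1-HKO array. Abcc4, a sinusoidal exporter of conjugates, read 5.37, 4.96 and 5.19 against 12.23, 11.88 and 12, at least 42-fold higher (adjusted p = 3.96e-09). Nqo1, the quinone reductase often used to report Nrf2 activity, read 3.15, 3.86 and 3.88 against 10.42, 9.56 and 9.99, at least 10.2-fold higher (adjusted p = 3.66e-07). The carboxylesterase Ces1g read 7.95, 7.21 and 7.13 against 13.76, 12.95 and 13.27, a 59.5-fold difference (adjusted p = 3.66e-07). In each of these 5 genes, which were chosen as large rises without overlap, the gap between the groups was many times the spread within them.

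The rest of the 15 largest rises held further transferases, transporters and genes with other roles. Gsta2, an alpha-class glutathione transferase, was 44.1-fold higher, Gstm1 was 27.5-fold higher and the conjugate exporter Abcc3 was 26.7-fold higher (adjusted p = 1.05e-05, 7.48e-06 and 5.46e-06). The renal urate transporter Slc22a12 read 2.53, 2.58 and 2.73 against 9.26, 8.00 and 7.67, and the glutamate transporter Slc1a1 read 2.30 on all 3 Nrf2-null arrays against 6.60, 7.74 and 7.27. Slc22a12 was at least 3.17-fold higher, while Slc1a1, which came only just over the limit, lost its call when values were raised to 100 (adjusted p = 0.152). Serpinb1a, an inhibitor of serine proteases, was at least 13.4-fold higher and varied within both genotypes, with 2.54, 5.31 and 2.61 against 11.17, 9 and 10.98. Fitm1, a protein of lipid droplet formation, was at least 13.5-fold higher, and Anxa13, an annexin, at least 2.81-fold higher (adjusted p = 5.26e-05 and 8.04e-05). 9130409I23Rik was at least 10.1-fold higher, with 2.79, 2.62 and 2.58 against 8.60, 10.76 and 10.57 (adjusted p = 8.89e-06).

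The 15 largest falls ran from -7.16 to -2.99 on the log2 scale. Cyp4a14, a fatty acid omega-hydroxylase, read 12.71, 9.38 and 12.68 in Nrf2-null livers and 4.17, 3.16 and 5.94 in Keap1-HKO livers, at least 30.8-fold lower (log2 difference -7.16, standard error 1.01, adjusted p = 0.0016). Nrf2-null replicate 2 was far below the other Nrf2-null livers, and still above every Keap1-HKO liver. Cyp17a1, a steroid hydroxylase, read 7.79, 7.60 and 8.06 against 3.89, 2.70 and 3.52, at least 2.25-fold lower (adjusted p = 0.00123). Slc3a1, a subunit of the transporter for cystine and dibasic amino acids, read 9.28, 9.74 and 9.59 against 6.18, 5.04 and 5.07, at least 7.42-fold lower (adjusted p = 1.86e-05). Igfbp2, a binding protein for insulin-like growth factors, read 13.32, 12.43 and 12.53 against 9.78, 9.29 and 10.09 and stayed well over the limit, 8.23-fold lower (adjusted p = 0.000103). The groups of these 4 genes did not overlap, as the rule for choosing the 15 falls required.

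Avpr1a, a vasopressin receptor, was at least 4.85-fold lower, Enho, which encodes the peptide hormone adropin, at least 5.31-fold lower, and Noct, the rhythmic phosphatase nocturnin, at least 3.43-fold lower (adjusted p = 1.27e-05, 0.00123 and 0.00163). Grk5, a kinase of G protein-coupled receptors, was at least 3.67-fold lower and Gm2788 at least 3.28-fold lower. The trefoil peptide Tff3 read 8.26, 9.96 and 6.56 against 3.64, 3.55 and 3.55, so that 1 Nrf2-null liver already lay under the limit. Mmd2 and Spsb4 were at least 2.02-fold and 2-fold lower and Chic1 at least 1.56-fold lower. Tcf24, a basic helix-loop-helix factor, read 6.48, 6.46 and 6.91 against 3.34 on each of the 3 Keap1-HKO arrays, and as both means were under 100 it has no fold. Raised to 100, the values of Tff3, Chic1 and Tcf24 no longer passed (adjusted p = 0.139, 0.141 and 0.936). A second probe set of Mmd2 differed by -2.35, and the other probe sets of Gstm1 by 3.47, 4.68 and 5.19 on the log2 scale.

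**Figure D2:**
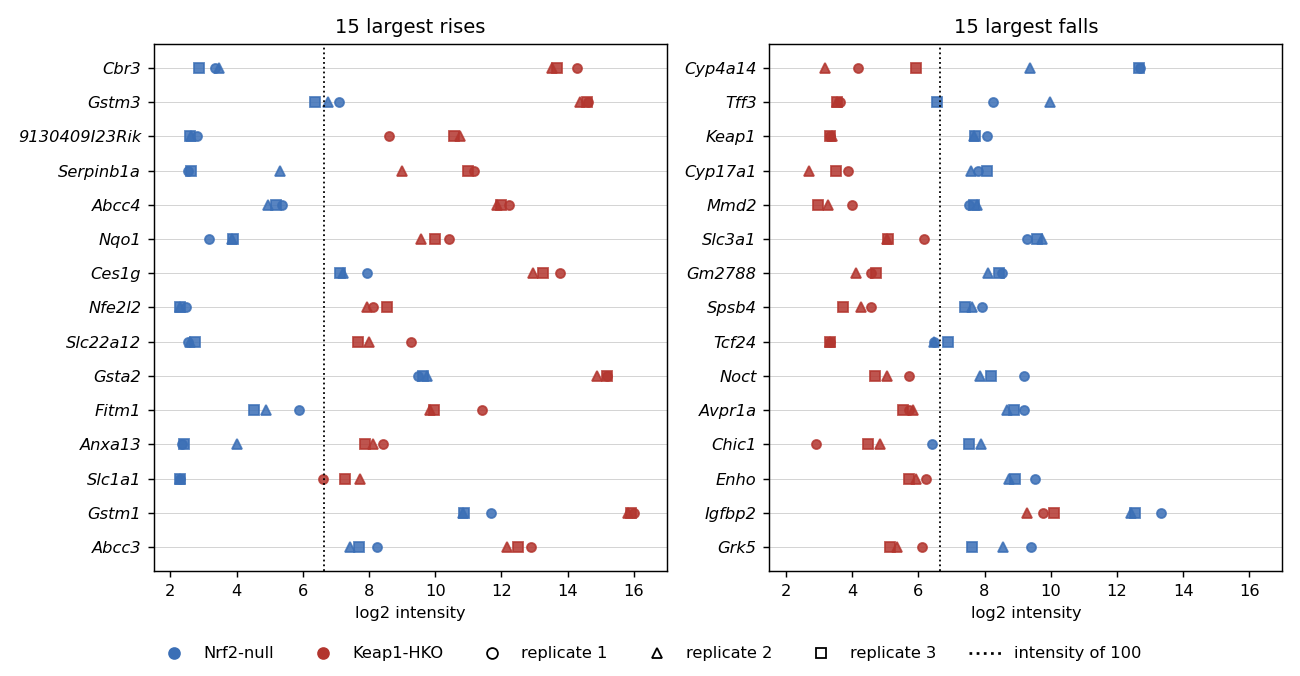
Log2 intensity on each Nrf2-null and Keap1-HKO array for the 15 most strongly risen and the 15 most strongly fallen genes, with an intensity of 100 as the dotted line and the replicate number as the shape. The 3 Keap1-HKO arrays lie beyond the 3 Nrf2-null arrays for every gene shown, as the rule for showing them required.

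The promoters of the most strongly risen genes were searched for the core of the antioxidant response element, TGACNNNGC, on both strands, in RefSeq windows (GRCm38.p6) from 250 bases before to 50 after each annotated start. The search covered no other motif, and matches to the 2 strands may overlap. Of all windows 12.4% held a match, as did 17.5% of the 4820 tested genes with a window, 22.6% of the 212 risen genes with one and 19.4% of the 216 fallen genes with one. These shares are a description, and many response elements lie farther from the start than these windows reach. Shown are the windows of the 6 genes with the largest rise that hold a match, and of the 2 genes with the largest fall that have a window, Keap1 and Mmd2, which hold none. Nfe2l2, deleted in Nrf2-null mice, and Keap1, deleted in Keap1-HKO hepatocytes, are the targeted genes, so their rank follows from the genotypes compared. Capitals mark the matches, and each sequence reads 5′ to 3′ on the strand of its gene.
9130409I23Rik (chr1:181050987-181051286, plus strand): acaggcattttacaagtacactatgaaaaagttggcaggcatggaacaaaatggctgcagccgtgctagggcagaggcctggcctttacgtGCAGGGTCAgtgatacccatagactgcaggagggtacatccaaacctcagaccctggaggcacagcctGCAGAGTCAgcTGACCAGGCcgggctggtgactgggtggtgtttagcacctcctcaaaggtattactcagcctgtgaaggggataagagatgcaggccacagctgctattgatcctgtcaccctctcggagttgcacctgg
Abcc4 (chr14:118676882-118677181, minus strand): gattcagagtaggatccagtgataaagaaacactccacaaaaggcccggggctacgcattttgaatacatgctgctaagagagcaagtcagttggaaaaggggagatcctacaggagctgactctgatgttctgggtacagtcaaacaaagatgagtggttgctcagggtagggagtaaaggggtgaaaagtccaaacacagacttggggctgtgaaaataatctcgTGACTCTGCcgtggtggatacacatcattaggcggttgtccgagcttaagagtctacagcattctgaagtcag
Nfe2l2 (chr2:75704614-75704913, minus strand): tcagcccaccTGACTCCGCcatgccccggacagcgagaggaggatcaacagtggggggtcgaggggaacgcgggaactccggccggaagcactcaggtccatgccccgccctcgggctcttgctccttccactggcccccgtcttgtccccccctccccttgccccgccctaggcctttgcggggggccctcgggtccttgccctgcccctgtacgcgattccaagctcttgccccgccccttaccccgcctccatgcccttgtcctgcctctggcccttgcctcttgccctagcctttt
Fitm1 (chr14:55575424-55575723, plus strand): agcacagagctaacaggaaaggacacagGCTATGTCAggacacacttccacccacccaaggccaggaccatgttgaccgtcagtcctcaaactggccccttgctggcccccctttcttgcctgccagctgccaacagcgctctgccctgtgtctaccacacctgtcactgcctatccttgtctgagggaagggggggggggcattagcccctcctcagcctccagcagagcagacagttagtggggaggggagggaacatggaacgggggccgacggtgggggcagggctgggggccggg
Srxn1 (chr2:152105274-152105573, plus strand): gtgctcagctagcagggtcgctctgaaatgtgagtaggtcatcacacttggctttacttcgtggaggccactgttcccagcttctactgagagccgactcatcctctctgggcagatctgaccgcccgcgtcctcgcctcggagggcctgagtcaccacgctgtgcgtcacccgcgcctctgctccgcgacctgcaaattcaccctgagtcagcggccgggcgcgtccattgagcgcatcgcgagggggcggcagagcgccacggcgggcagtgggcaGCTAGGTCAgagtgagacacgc
Ugdh (chr5:65435793-65436092, minus strand): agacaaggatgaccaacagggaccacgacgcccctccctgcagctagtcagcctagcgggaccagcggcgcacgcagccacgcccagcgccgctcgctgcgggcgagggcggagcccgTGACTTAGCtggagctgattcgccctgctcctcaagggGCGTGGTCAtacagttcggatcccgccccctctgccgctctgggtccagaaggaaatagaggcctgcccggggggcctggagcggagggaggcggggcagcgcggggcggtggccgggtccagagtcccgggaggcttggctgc
Keap1 (chr9:21239283-21239582, minus strand): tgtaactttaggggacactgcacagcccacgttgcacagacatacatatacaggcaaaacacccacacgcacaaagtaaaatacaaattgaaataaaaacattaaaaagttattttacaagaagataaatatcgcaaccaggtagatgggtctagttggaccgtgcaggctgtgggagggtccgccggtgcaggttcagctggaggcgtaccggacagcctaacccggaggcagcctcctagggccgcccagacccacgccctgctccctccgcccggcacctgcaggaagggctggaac
Mmd2 (chr5:142608703-142609002, minus strand): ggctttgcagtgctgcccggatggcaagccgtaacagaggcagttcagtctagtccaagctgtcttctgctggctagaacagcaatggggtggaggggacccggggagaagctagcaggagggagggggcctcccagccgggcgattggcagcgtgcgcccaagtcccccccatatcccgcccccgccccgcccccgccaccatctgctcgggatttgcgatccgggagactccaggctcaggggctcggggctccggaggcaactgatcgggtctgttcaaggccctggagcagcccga
The matches in 9130409I23Rik lie 159, 91 and 80 bases before the start, the single match in Abcc4 lies 23 bases before it, and the pair in Ugdh 132 and 94 bases before it. In Nfe2l2 the match lies 240 bases and in Fitm1 222 bases before the start, and in Srxn1 it lies 28 bases after it. No deposited value measured binding of Nrf2 to any of these letters.

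Enzymes that reduce quinones and carbonyls or open epoxides rose in 5 of 9 measured cases and fell in none, with a list median of 2.26 against -0.05 for all genes. Over all genes 4.51% were called higher and 4.63% lower, and the counts of every list below stand against these shares. A count of 1 or 2 called members is a description of those members and not of their list. Besides Cbr3 and Nqo1 these were Cbr1, a second carbonyl reductase (9.94, 9.52 and 9.72 against 13.62, 13.07 and 13.32, 12.2-fold, adjusted p = 1.05e-05), and Ephx1, microsomal epoxide hydrolase (8.84-fold, adjusted p = 3.78e-05). The fifth was Ptgr1, an alkenal reductase, at least 2.19-fold higher. Aldo-keto reductases rose in 3 of 10 cases, with Akr1c19 3.21-fold, Akr1c13 1.8-fold and Akr1a1 1.59-fold higher. A single member, Akr1c20, fell 1.39-fold (adjusted p = 0.0484), and its call ended without any 1 of 11 arrays, Keap1-HKO replicate 1 being the exception.

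Glutathione transferases were the list with the most risen members, 11 of 19, with none lower and a median of 0.70. Beyond Gstm3, Gstm1 and Gsta2, the mu-class member Gstm4 read 7.97, 6.87 and 6.94 against 11.99, 11.55 and 11.56 (21.7-fold, adjusted p = 1.05e-05) and Gsta4, which acts on lipid aldehydes, 9.36, 9.62 and 9.60 against 12.78, 12.35 and 12.56 (8.2-fold, adjusted p = 5.89e-05). Gstm2 was 10.6-fold and the microsomal Mgst3 4.65-fold higher (adjusted p = 0.000116 and 0.00405), while the abundant Gsta3 read 14.28, 14.13 and 14.26 against 14.96, 14.63 and 14.76, 1.47-fold (adjusted p = 0.0226), a call that ended without Keap1-HKO replicate 3 or Nrf2-null replicate 2 or 3 (adjusted p = 0.0587, 0.0893 and 0.0642). Without the first replicates 11 were again called higher, and 8 to 11 when single arrays were left out. Mu-class genes are close copies of each other, and whether the probe set of 1 member also bound the transcript of another was not tested.

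Glucuronidation, which joins UDP-glucuronic acid to chemicals, rose in 6 of 13 cases with a median of 0.84 and fell in none. Ugt2b35, a UDP-glucuronosyltransferase, read 10.04, 10.61 and 10.56 against 13.13, 13.73 and 13.83 (8.93-fold, adjusted p = 7.48e-06), and Ugt2b36 and Ugt2b5 were 2.47-fold and 2.59-fold higher. The supply of the sugar moved in the same direction: Ugdh, which makes UDP-glucuronic acid, was 7.06-fold higher and Slc35d1, which carries it into the endoplasmic reticulum, 3.18-fold higher (adjusted p = 7.1e-05 and 0.000273). Sulfation and other conjugation moved in few members, 2 of 15 higher and 1 lower, against 4.51% and 4.63% of all genes. The sulfotransferase Sult1a1 was 2.15-fold lower (13.27, 13.36 and 13.36 against 12.39, 11.77 and 12.51, adjusted p = 0.0378) and the thiopurine methyltransferase Tpmt 1.88-fold higher (adjusted p = 0.045), and these calls ended without any 1 of 6 and 11 arrays (adjusted p up to 0.11 and 0.119). The count of 2 higher was 1 without any 1 of the 11 arrays that ended the Tpmt call.

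Efflux transporters rose in 7 of 15 cases and fell in none, with a median of 0.59, and the count was 7 under each single array left out. Abcg5 and Abcg8, the 2 subunits of the canalicular sterol exporter, rose together, Abcg5 6.5-fold (7.42, 7.74 and 7.58 against 10.67, 9.83 and 10.35) and Abcg8 at least 3.1-fold (adjusted p = 1.86e-05 and 0.000178). Abcc12 read 2.29, 2.56 and 2.39 against 6.85, 7.40 and 6.63, and with values raised to 100 its call ended (adjusted p = 0.311). The canalicular exporters Abcc2 and Abcg2 rose less, 2.05-fold and 1.99-fold (adjusted p = 0.00123 and 0.000699), with no overlap between the groups. Uptake transporters went both ways, with Slc22a12, Slc22a30 and Slc22a18 higher and Slc22a7 (Oat2) lower of 14 measured. Slc22a7 read 10.32, 10.72 and 9.87 against 8.18, 8.63 and 7.68, 4.41-fold lower (adjusted p = 0.0103), and Slc22a30 was 1.67-fold higher. Slc22a18 had an adjusted p of 0.0476, a call that ended without any 1 of 10 arrays (adjusted p up to 0.169).

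Thiol defence rose in part of its members. Of 10 genes of glutathione synthesis and recycling 4 rose and none fell (median 0.57): Gclc, the catalytic subunit of the rate-limiting ligase (11.76, 11.60 and 11.46 against 13.52, 13.37 and 13.42, 3.56-fold, adjusted p = 9.09e-05), glutathione reductase Gsr (2.29-fold), glutathione synthetase Gss (2.14-fold) and glutaredoxin Glrx (1.68-fold). The Glrx call ended without Keap1-HKO replicate 3, Nrf2-null replicate 2 or Nrf2-null replicate 3 (adjusted p = 0.065, 0.0942 and 0.0997). Of 6 peroxidases, catalase and superoxide dismutases 2 rose. Gpx2, a glutathione peroxidase usually found in gut, went from 4.22, 4.13 and 4.11 to 8.94, 9 and 8.52, at least 4.51-fold (adjusted p = 2.05e-07), and Gpx4, which reduces lipid hydroperoxides, was 2.26-fold higher. In the thioredoxin list 4 of 11 rose, led by Srxn1, sulfiredoxin (7.64, 7.32 and 7.18 against 11.18, 11.12 and 11.03, 13.3-fold, adjusted p = 2.05e-07), and thioredoxin reductase Txnrd1 (4.48-fold), with thioredoxin Txn1 1.89-fold and its binding protein Txnip 1.53-fold higher. The Txnip call ended without any 1 of 6 arrays (adjusted p up to 0.114), namely Keap1-HKO replicate 2 or 3, Nrf2-null replicate 1 or 3, or wild-type replicate 1 or 3.

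NADPH, the electron donor of most of these reactions, is made by the pentose phosphate pathway and malic enzyme. Of 9 such genes 3 rose and 1 fell. Pgd, a dehydrogenase of the pathway, read 10.66, 9.85 and 9.96 against 12.65, 12.12 and 12.06 (4.35-fold, adjusted p = 0.00123) and the transketolase Tkt was 2.35-fold higher (adjusted p = 0.00152). Malic enzyme Me1 was 3.1-fold higher (9.57, 8.65 and 10.03 against 11.20, 10.95 and 11.01, adjusted p = 0.0347), and its call ended without any 1 of 9 arrays (adjusted p up to 0.113), Keap1-HKO and Keap1-KD replicates 1 to 3, Nrf2-null replicates 1 and 2 and wild-type replicate 3, and without both first replicates (0.0518). Nnt, the mitochondrial transhydrogenase, was 2.71-fold lower, with Keap1-HKO replicate 1 at 8.86 and the other Keap1-HKO livers at 9.90 and 9.997, and without both first replicates it was lower by -0.97 on the log2 scale.

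Of 19 iron and heme genes 4 were called higher and 2 lower, against 4.51% and 4.63% of all genes. Blvrb, biliverdin reductase B, rose 6.65-fold (11.13, 10.66 and 10.81 against 14.11, 13.22 and 13.48, adjusted p = 0.000233) and the iron-binding pirin gene Pir 6.43-fold (adjusted p = 8.86e-06). Ferrochelatase Fech was 1.56-fold and ferritin heavy chain Fth1 1.39-fold higher (adjusted p = 0.00613 and 0.035). The plasma scavengers haptoglobin, Hp, and hemopexin, Hpx, were 1.38-fold and 1.36-fold lower (adjusted p = 0.0324 and 0.0471). The calls of Fth1, Hp and Hpx ended without any 1 of 9, 10 and 11 of the 12 arrays, with adjusted p up to 0.135, 0.103 and 0.134. Each of the 3 was called without Keap1-HKO replicate 1 and also without both first replicates (adjusted p = 0.0152, 0.00512 and 0.0121).

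Oxidases, P450 enzymes and esterases, which oxidise or hydrolyse chemicals, were counted next. Of 21 aldehyde and alcohol dehydrogenases, oxidases and flavin monooxygenases 7 rose, led by aldehyde oxidase Aox1 (7.32, 8.24 and 7.77 against 12.06, 12.17 and 12.07, 20-fold, adjusted p = 1.48e-06) and Fmo1 (2.12-fold), and 3 and 2 rose without Keap1-HKO replicate 3 and without Nrf2-null replicate 3. Aldh1a1 was 1.53-fold higher (adjusted p = 0.0135), a call that ended without Keap1-HKO replicate 3 or Nrf2-null replicate 3 (adjusted p = 0.0518 and 0.057). Of 33 P450 enzymes 5 rose and 3 fell, against 4.51% and 4.63% of all genes. Cyp2c50, with 14.21, 13.93 and 13.91 against 14.97, 14.99 and 15.10, and Cyp2c54 were 2.01-fold and 3.89-fold higher, and Cyp2g1 was at least 1.98-fold higher. The call of Cyp2g1 ended with values raised to 100 (adjusted p = 0.0715). Cyp2u1 was at least 2.31-fold lower. The P450 count of 5 higher was 3 without Nrf2-null replicate 2 and 3 without Nrf2-null replicate 3, while the lower count was 3 there as well. Carboxylesterases rose in 4 of 9 cases, but apart from Ces1g the calls were close to the threshold, with adjusted p of 0.0405, 0.0406 and 0.0441 for Ces2b, Ces2e and Ces2g, and they ended without any 1 of 8, 9 and 11 arrays (adjusted p up to 0.14, 0.139 and 0.159). The Ces2b call also ended without both first replicates (adjusted p = 0.101).

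**Figure D3:**
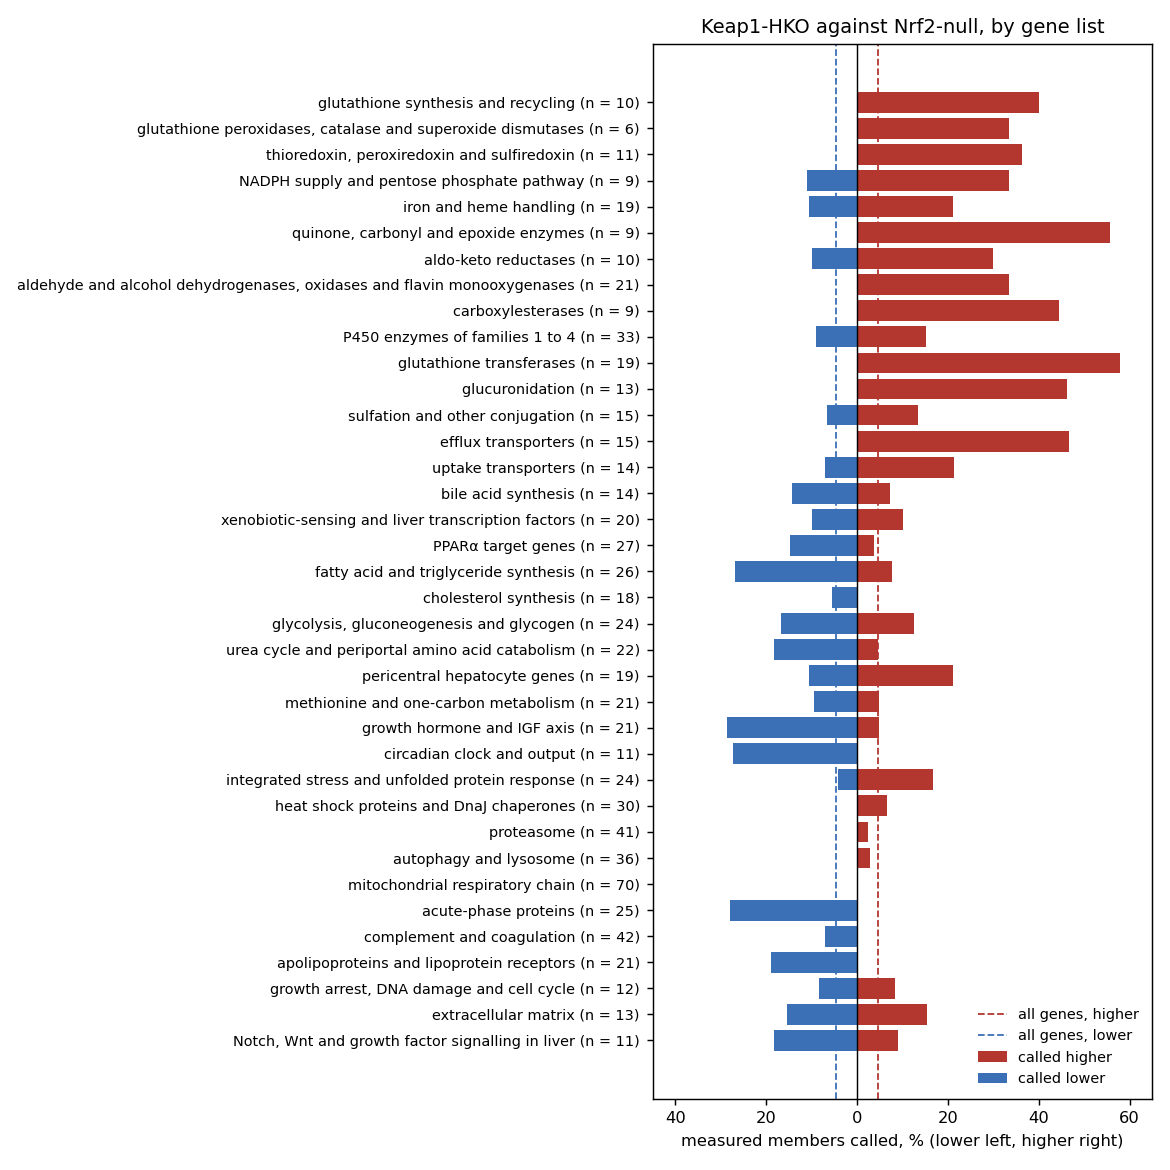
Percent of the measured members of each gene list that were called higher (to the right) or lower (to the left) in Keap1-HKO than in Nrf2-null livers, with the same percent over all genes as dashed lines. The lists of detoxification and thiol defence have more of their members called higher, and those of lipid synthesis, acute-phase proteins and the growth hormone axis more called lower, than all genes.

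Genes of fatty acid and triglyceride synthesis were lower in 7 of 26 cases and higher in 2, with a median of -0.50. Enzymes of desaturation and elongation led the falls: Scd1 (15.50, 15.50 and 15.61 against 13.72, 13.04 and 14.16, 3.73-fold, adjusted p = 0.000965), Elovl5 (3.7-fold), Fads1 (2.85-fold) and Elovl2 (3.12-fold) were each lower with no overlap. Acly, which makes cytosolic acetyl-CoA, fatty acid synthase Fasn and the desaturase Fads2 were 2.24-fold, 2.68-fold and 2.09-fold lower (adjusted p = 0.0278, 0.0441 and 0.0429), and their calls ended without any 1 of 4, 9 and 10 arrays (adjusted p up to 0.0875, 0.14 and 0.119). The Acly call also ended without both first replicates (adjusted p = 0.0554). The related desaturase Scd2 was at least 1.28-fold higher, from under 100 in Nrf2-null livers, and lost its call with values raised to 100 (adjusted p = 0.329). Malic enzyme, counted here too, was the other gene higher. The count of 7 lower was 4 without Keap1-HKO replicate 3 or any 1 of the Nrf2-null replicates and 11 without Keap1-HKO replicate 1. In cholesterol synthesis 1 of 18 genes was called, the desaturase Sc5d, 2.62-fold lower (adjusted p = 0.00181), although the list median was -0.44. Among PPARα target genes 4 of 27 fell and 1 rose. Cyp4a14, Ehhadh (1.73-fold), Acadl (1.51-fold) and Plin2 (1.85-fold), of fatty acid oxidation and lipid droplets, were lower, while the fatty acid receptor Cd36 was higher by 3.48 on the log2 scale (5.22, 6.91 and 6.54 against 8.24, 10.44 and 10.44, adjusted p = 0.00405), with 1 of the Nrf2-null arrays over 100. The calls of Ehhadh, Acadl and Plin2 ended without any 1 of 3, 10 and 9 arrays (adjusted p up to 0.0768, 0.13 and 0.0988), so that the count of 4 fell to between 1 and 2 without 7 of the arrays. Without both first replicates the Acadl call ended too (adjusted p = 0.0535).

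In bile acid synthesis, the sterol hydroxylase Cyp7a1, the rate-limiting enzyme, read 7.70, 8.55 and 9.33 against 5.11, 6.97 and 6.23, at least 3.69-fold lower (adjusted p = 0.0471). Its call ended without any 1 of 8 arrays, 2 of each genotype or more except Keap1-KD, with adjusted p up to 0.17. Amacr was 1.69-fold lower, and Acox2 was 1.72-fold higher with a call that ended without Keap1-HKO replicate 3 or Nrf2-null replicate 2 or 3 (adjusted p = 0.0512, 0.0942 and 0.109), and the remaining 11 of the 14 genes did not pass. Glycogen genes split: Gbe1, the branching enzyme, rose 3.97-fold (adjusted p = 0.000325), while Ppp1r3b, which targets phosphatase to glycogen, fell 3.38-fold and lactate dehydrogenase Ldha 1.66-fold (adjusted p = 0.00127 and 0.011). The glycolysis, gluconeogenesis and glycogen list as a whole had 3 of 24 genes higher and 4 lower, against 4.51% and 4.63% of all genes. The higher count was 1 without Keap1-HKO replicate 3 or Nrf2-null replicate 2, and the lower count was 2 without Keap1-HKO replicate 3, Nrf2-null replicate 2, Nrf2-null replicate 3 or wild-type replicate 3. In methionine metabolism Cbs, which commits homocysteine to cysteine synthesis, was 2.68-fold lower (11.46, 11.22 and 11.29 against 10.25, 9.57 and 9.89, adjusted p = 0.000499). Shmt1, a serine hydroxymethyltransferase, was 1.62-fold lower (adjusted p = 0.0141, and 0.0532 without Keap1-HKO replicate 3) and choline dehydrogenase Chdh 1.58-fold higher, and the remaining 18 of the 21 genes did not pass. Of 22 genes of the urea cycle and periportal amino acid catabolism 4 were lower and 1 higher, Tat 2.42-fold and the aspartate-glutamate carrier Slc25a13 1.53-fold lower among them, with a median of -0.44. Without any 1 of 11 arrays, Keap1-HKO replicate 1 excepted, between 0 and 2 were called lower, and the gene called higher, Cyp2f2 (adjusted p = 0.0486), passed in none of the 12 fits that left out an array. Of 19 pericentral genes 4 were higher, Gstm3, Nr1i3, Cyp1a2 (1.88-fold) and the ammonium transporter Rhbg (at least 2.18-fold), and 2 lower, Cyp7a1 and Rnase4 (1.76-fold). The higher count was 2 without Nrf2-null replicate 3, and the lower count was between 0 and 1 without any 1 of 11 arrays, Nrf2-null replicate 1 excepted.

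Genes of the growth hormone axis and of plasma proteins were mostly called in the lower direction. The growth hormone and IGF list had 6 of 21 genes lower, 1 higher and a median of -0.58. Besides Igfbp2 it held Hsd3b5, a male-predominant steroid enzyme (13.81, 13.67 and 13.55 against 12.59, 11.97 and 11.70, 3.01-fold, adjusted p = 0.00123), and the complement components C8b (2.08-fold) and C6 (2.6-fold). The growth hormone receptor Ghr and Igf1, the hepatic growth factor it controls, were 1.45-fold and 1.49-fold lower (adjusted p = 0.0141 and 0.0401), calls that ended without Nrf2-null replicate 3 and with the mean over its probe sets for Ghr (adjusted p = 0.0654 and 0.418) and without any 1 of 10 arrays (adjusted p up to 0.118) and with the mean over its probe sets (0.385) for Igf1. Keg1, the gene called higher, rose 3.47-fold (10.89, 10.33 and 9.81 against 12.29, 12.16 and 11.97, adjusted p = 0.00212). Acute-phase proteins fell in 7 of 25 cases and rose in none. These falls were small: Itih4 1.89-fold, Itih3 1.65-fold, and the fibrinogen chains Fgb 1.54-fold, Fga 1.59-fold and Fgg 1.38-fold (adjusted p = 0.00179, 0.00506, 0.00683, 0.0141 and 0.0152), with Hp and Hpx given above. Without Nrf2-null replicate 2 or replicate 3 the count of 7 was 3, as Fga (adjusted p = 0.0511 and 0.0576), Fgg (0.0627 and 0.0598), Hp (0.103 and 0.0712) and Hpx (0.134 and 0.101) did not pass there. Of 42 complement and coagulation genes 3 were lower with all arrays, 13 without Keap1-HKO replicate 1 and 16 without both first replicates. Of 21 apolipoproteins and lipoprotein receptors 4 were lower. Without any 1 of 11 arrays, Keap1-HKO replicate 1 being the exception, 1 or 2 were called. Apon, 1.79-fold lower (adjusted p = 0.00765), was called whichever single array was left out, but not with the 6 arrays alone (0.154). In bulk liver, fewer cells of a type and less mRNA per cell cannot be told apart, here and in every other comparison.

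Other machinery changed in few members. None of the 70 measured genes of the mitochondrial respiratory chain was called, against 9.14% of all genes, and their log2 differences lay between -0.37 and 0.31. Of these 70 genes 5 had an unadjusted p under 0.05 in the limma fit, and 5 were lower by Duncan's test. Of all 5856 genes 583 higher and 711 lower ones had such a p. Duncan's test called 401 of all genes higher and 449 lower. Of 41 proteasome genes 1 was called, Psmd5 (1.66-fold higher), a call that ended without Nrf2-null replicate 2 or 3 (adjusted p = 0.0577 and 0.0631). Of 36 genes of autophagy and lysosome 1 was called, Hexa, a lysosomal hexosaminidase, which read 9.53, 8.81 and 8.96 against 11.90, 11.38 and 11.44 (5.55-fold, adjusted p = 4.84e-05). Among 30 heat shock and DnaJ chaperones Fkbp5 (3.49-fold, adjusted p = 7.76e-05) and Dnajc12 (1.79-fold) were higher. In the integrated stress and unfolded protein response 4 of 24 were higher and Atf5 was lower (2.14-fold, adjusted p = 0.0125, and 0.0555 without Nrf2-null replicate 3). Trib3, a pseudokinase of that response, read 5.51, 3.81 and 5.08 against 9.18, 6.93 and 8.77, at least 3.14-fold higher, and Syvn1, an endoplasmic reticulum ubiquitin ligase, was 2.14-fold higher. The endoplasmic reticulum proteins Creld2 and Manf followed with adjusted p of 0.0236 and 0.0497, and their calls ended without any 1 of 3 and 11 arrays (adjusted p up to 0.092 and 0.17). The Trib3 call ended with values raised to 100 (adjusted p = 0.0689), the Manf call with the replicate block (adjusted p = 0.0577), and the count of 4 was 2 without Keap1-HKO replicate 2, Nrf2-null replicate 2 or Nrf2-null replicate 3.

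Among 20 liver transcription factors and xenobiotic sensors Nr1i3, the constitutive androstane receptor, was higher by 2.96 on the log2 scale (6.84, 5.45 and 5.76 against 9.75, 8.14 and 9.05, adjusted p = 0.00141), with 1 of the Nrf2-null arrays over 100. Pparg, a regulator of lipid storage, read 4.54, 4.49 and 4.47 against 7.19, 6.48 and 6.81, and its call ended with values raised to 100 (adjusted p = 0.394). Foxa3, a forkhead factor of hepatocytes, was 2.33-fold lower (adjusted p = 0.0141, and 0.0506 without Nrf2-null replicate 2). Nr5a2, a nuclear receptor, was lower with an adjusted p of 0.0495, and its call ended without any 1 of the 9 Nrf2-null, wild-type and Keap1-KD arrays (adjusted p up to 0.146) and with the mean over its probe sets (0.225). In the circadian list Noct, Hlf and Cry1 were called lower of 11 genes, but Hlf and Cry1 were nearer the threshold (adjusted p = 0.0183 and 0.0337). The Hlf call ended without Keap1-HKO replicate 2 or Nrf2-null replicate 3 (adjusted p = 0.0512 and 0.0781) and with values raised to 100 (0.592), and that of Cry1 without any 1 of 7 arrays (adjusted p up to 0.101) and without both first replicates (0.0812). The cyclin Ccnd1 was at least 2.24-fold lower (8.06, 7.89 and 7.47 against 6.51, 6.56 and 6.40, adjusted p = 0.00164), and the replication helicase subunit Mcm6 was at least 1.09-fold higher (adjusted p = 0.0236). The Mcm6 call ended with values raised to 100 (0.444), with a second quantile normalization (0.139) and without Keap1-HKO replicate 2, Nrf2-null replicate 2 or Nrf2-null replicate 3 (adjusted p = 0.0519, 0.0631 and 0.0956). Ccnd1 and Mcm6 were the 2 called of 12 genes of growth arrest and cell cycle, against 9.14% of all genes called in either direction. Of 13 extracellular matrix genes 2 were higher and 2 lower, with the lectin Lgals1 5.1-fold higher (9.24, 9.27 and 9.32 against 12.37, 11.34 and 11.17, adjusted p = 0.00141) and fibronectin Fn1 1.7-fold lower (adjusted p = 0.0193). Of 11 genes of Notch, Wnt and growth factor signalling 1 was higher, the ligand Pdgfc 1.83-fold (adjusted p = 0.0369), and 2 lower, Hes6 2.55-fold (adjusted p = 0.000974) and the receptor Notch2 1.95-fold (adjusted p = 0.0257). The Fn1 and Notch2 calls ended without any 1 of 4 and 3 arrays (adjusted p up to 0.0592 and 0.0715). The count of 1 higher in the last list was 0 without any 1 of 10 arrays (adjusted p of Pdgfc up to 0.139), 2 without Nrf2-null replicate 1 and 1 without Keap1-HKO replicate 1.

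Markers of other cells of the liver were mostly not called. The median log2 difference was -0.41 for macrophages, with 8 of 9 below 0, -0.61 for stellate cells, with 6 of 7 below 0 and 3 lower with no overlap, and 0.06 for endothelium, against -0.05 for all genes. Of all 5856 genes 3263 lay below 0, and 11.1% were lower with no overlap. No marker was called among 9 of Kupffer cells or macrophages, 8 of liver endothelium and 7 of stellate cells in the limma fit, where 2, 0 and 2 had an unadjusted p under 0.05 and Duncan's test called 1, 0 and 0. Over all 5856 genes the unadjusted p was under 0.05 for 583 higher and 711 lower ones, and Duncan's test called 401 and 449. Macrophage markers called lower numbered 2 without Keap1-HKO replicate 1 and 2 without both first replicates, stellate markers called lower 2 without Keap1-KD replicate 1 and 1 without both first replicates, and 1 endothelial marker was called higher without Nrf2-null replicate 3. The single lymphocyte and the single adipocyte marker on the list of genes were not called either, and neither had an unadjusted p under 0.05 or was called by Duncan's test. Summed intensities of these lists overlapped between the genotypes for endothelium (4711 to 5676 in Nrf2-null and 4411 to 5190 in Keap1-HKO livers) and stellate cells (4151 to 5863 and 2989 to 4164), but not for macrophages (6214 to 7973 and 5587 to 6178), whose part in the results above was not tested. Of 8 listed cholangiocyte markers the 2 measured were the keratins Krt8 and Krt18, and which cells their signal came from was not tested. Krt8 was higher (1.62-fold, adjusted p = 0.0391), and Alas2, the erythroid marker measured, was lower (2.13-fold, adjusted p = 0.0345). Their calls ended without any 1 of 8 and 10 arrays (adjusted p up to 0.13 and 0.117). Spink1, a trypsin inhibitor of the pancreas, was called higher (adjusted p = 0.0117) with 2.29 on each Nrf2-null array against 4.25, 9.25 and 7.09, and it is 1 of the 37 genes that follow the acinar or muscle markers.

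Wild-type and Keap1-KD livers had no part in choosing the groups compared, but their arrays entered the fit that called the genes. Most called genes were ordered along a graded series. From Nrf2-null through wild-type and Keap1-KD to Keap1-HKO livers the 4 means rose at each step for 199 of the 264 risen genes (75.4%) and fell at each step for 178 of the 271 fallen genes (65.7%), while 18.6% of all genes higher in Keap1-HKO livers and 18.1% of all lower ones were so ordered. A gene with a large difference between the ends is more readily ordered by it, so that these shares are a description. Wild-type livers had on median covered 31.7% of the log2 span from Nrf2-null to Keap1-HKO in risen genes (quartiles 16.6% and 48.2%) and 28% in fallen genes (quartiles 11.4% and 43.8%). The median for Keap1-KD livers was 51.6% and 45.4%. For 24 risen and 37 fallen genes the wild-type mean lay beyond the Nrf2-null mean, and for 5 and 4 it lay beyond the Keap1-HKO mean.

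The share of the span covered at wild-type is given here for named genes as a description. Among those over 100 at both ends, wild-type livers had covered 85.6% of the span for Cyp2c50, 84.9% for Ugt2b5, 78.3% for Ugt2b36 and 72.2% for Ces1g. For Gstm3, Gsta2 and Gstm1 wild-type livers lay near the middle, at 46.6%, 48.1% and 45.5%. By contrast they had covered 15.9% for Gclc, 18.1% for Srxn1, 4.81% for Blvrb and -0.903% for Cbr1. Of these genes Srxn1 and Cbr1 passed the test of step sizes given below. Among the falls, wild-type and Keap1-HKO means both lay under 100 for Cyp4a14 (4.80 and 4.43, against 11.59 in Nrf2-null and 8.88 in Keap1-KD livers) and for Noct (5.13 and 5.16, against 8.42), so that no step between them can be measured. For Scd1 and Hsd3b5 wild-type livers had covered 13.6% and 10.9% of the span.

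Whether the steps from Nrf2-null to wild-type and from wild-type to Keap1-HKO differed in size was tested for every gene in the same fit, and 21 genes (0.359%) passed, with 457 at an unadjusted p under 0.05. The step to Keap1-HKO was the larger in 16 of them and the step from Nrf2-null in 5. Of the 16, 13 rose: Cbr3, Abcc4, Anxa13, Slc22a12, Slc1a1, Osbpl3, Gpx2, Abcc12, Nqo1, Cbr1, Srxn1, Fkbp5 and Txnrd1. On the log2 scale Abcc4 differed by 0.08 between Nrf2-null and wild-type and by 6.78 between wild-type and Keap1-HKO, and Cbr1 by -0.03 and 3.64 (adjusted p of the difference between the steps = 8.57e-07 and 0.00338). For 9 of the 13, Cbr1, Srxn1, Fkbp5 and Txnrd1 excepted, Nrf2-null and wild-type means both lay under 100, where a step cannot be measured. With values raised to 100 the difference no longer passed for Slc22a12, Slc1a1, Osbpl3 and Abcc12, while it did for Cbr3, Abcc4, Gpx2, Nqo1 and Anxa13. Raising values sets the first step of these 9 genes near 0. Passing there therefore shows only that Keap1-HKO livers exceeded 100, and step sizes cannot be compared. Keap1 itself, Tmem19 and Hsd3b2 fell in the second step. Tmem19 read 9.84, 9.75 and 9.60 in Nrf2-null and 8.26, 7.85 and 7.72 in Keap1-HKO livers, with a wild-type mean of 9.82.

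The 5 genes with the larger step from Nrf2-null to wild-type were Nfe2l2, 9130409I23Rik, B3galt1, Cd59a and Aox3. With values raised to 100 the difference no longer passed for 9130409I23Rik and B3galt1 (adjusted p = 0.607 for each). For Nfe2l2, the gene deleted in Nrf2-null mice, the Keap1-HKO mean minus the wild-type mean was -0.70 on the log2 scale. Aox3, an aldehyde oxidase, was lower at both ends: 10.16, 11.43 and 10.63 in Nrf2-null and 10.88, 11.07 and 11.20 in Keap1-HKO livers around a wild-type mean of 12.42 and a Keap1-KD mean of 12.44, so that the end-to-end difference of 0.31 did not pass (adjusted p = 0.609). Its relative Aox1 was ordered along the whole series, with means of 7.77, 10.54, 11.25 and 12.10. The complement inhibitor Cd59a was 2.57-fold higher in Keap1-HKO than in Nrf2-null livers, with a wild-type mean of 9.53 above the Keap1-HKO mean of 9.17. Of the 21 differences between steps, 12 passed whichever single array was left out, and those of 9130409I23Rik, B3galt1, Aox3, Hsd3b2, Txnrd1 and Fkbp5 each ended without any 1 of at least 9 arrays, and those of Cd59a, Tmem19 and Anxa13 without any 1 of the 3 wild-type arrays. With the replicate number as a block the differences of 9130409I23Rik, B3galt1 and Fkbp5 no longer passed (adjusted p = 0.064, 0.0553 and 0.064).

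**Figure D4:**
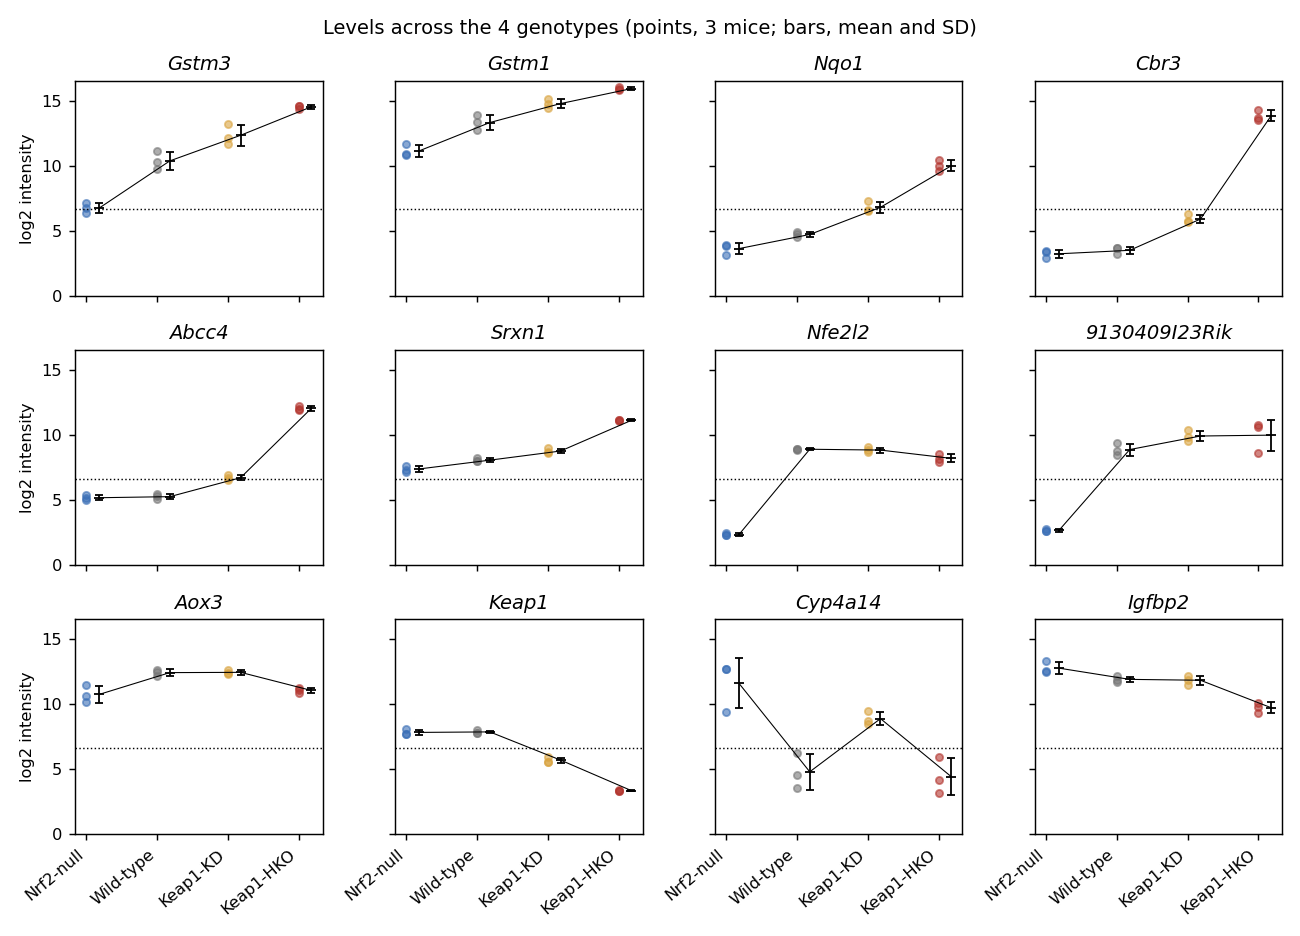
Log2 intensity by genotype for 12 genes, with a point for each of 3 mice, the mean with its SD beside the points, and an intensity of 100 as the dotted line. Gstm3 and Gstm1 rise through all genotypes, Nfe2l2 and 9130409I23Rik mostly at the Nrf2-null end, and Aox3 is lower at both ends. Cbr3 and Abcc4 rise mostly at the Keap1-HKO end. Their Nrf2-null and wild-type means lie under 100, where the step between them cannot be measured.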

How the data were processed

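Total liver RNA of 12 naïve 8-week-old male mice, 3 for each of 4 genotypes, was hybridised to Affymetrix whole-genome mouse arrays, 1 array per mouse. The deposited values are log2 intensities, which the authors made with gcRMA background correction, quantile normalization and summary in R; they kept probe sets over an intensity of 100 in at least 1 genotype and did not pool replicates. The smallest value is 2.29 and the largest 16.84. Of 9622 probe sets, 8554 had 1 gene symbol in the platform annotation, 371 had several and 697 had none. Symbols were updated through the gene ID for 8543. The probe set with the highest mean stood for each of 5856 genes, of which 1869 had several.

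Genotypes were compared with limma 3.58.1 in R 4.3.3 on the log2 values of all 12 arrays, without pseudocount, two-sided, with Benjamini-Hochberg adjustment over the 5856 genes and a call at an adjusted p under 0.05. The fit has 8 residual degrees of freedom. The difference between steps was tested as Keap1-HKO plus Nrf2-null minus 2 times wild-type. On simulated data made from these 12 arrays and 5856 genes, the Keap1-HKO against Nrf2-null test recovered 16%, 40%, 90% and 96% of 50 genes each that were changed by 0.5, 1, 2 and 4 on the log2 scale. The simulated noise was independent and had the same spread for a gene on all 12 arrays. The real first replicates of Keap1-HKO and Nrf2-null deviated more than the others and alike. These shares therefore need not hold for the 6 arrays compared. The precision is limited by the number of arrays. The spread of each gene was pooled over the 4 genotypes, and wild-type and Keap1-KD arrays varied less than the 6 arrays compared. The p-values can therefore understate the spread of the 2 groups compared.

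Replicate numbers of the labels were checked for pairing: deviations from the genotype means correlated at 0.787, 0.685 and 0.699 between same-numbered Keap1-HKO and Nrf2-null arrays, and at -0.799 to 0.622 between other pairs. Deviations cancel within a genotype, so a deviation shared by the first replicates alone would also raise the correlations among replicates 2 and 3. The crossed pairs of replicates 2 and 3 correlated at 0.426 and 0.622, so that a pairing of these replicates is not shown. These correlations cover Keap1-HKO and Nrf2-null arrays only. The main fit used no pairing, and the number as a block is an alternative. What the numbers stand for is not given in the sources used here.

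Genes named were Nfe2l2 and Keap1, the 15 largest rises and falls among called genes without overlap between the groups, up to 5 members of each of 37 pathway lists and 12 marker lists by adjusted p (pancreas islet and neutrophil markers were not among the genes), the 5 largest each way without both first replicates, and the 5 largest differences between steps each way. Outside this rule, 18 genes were named after their values were seen: Hpx, Cd59a, Tmem19, Hsd3b2, Osbpl3, Spink1, Acly, Fads2, Fasn, Ghr, Igf1, Gstm2, Mgst3, Gsta3, Abcg2, Abcc2, Cela1 and Reg1. The genotypes compared, the lists and the tests were chosen with earlier results of these data known.

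Alternatives were fits without both first replicates, with the 6 arrays alone, with the block, with array quality weights (estimated gene by gene), at other intensity limits and normalizations, with the mean over probe sets, with trended or robust variance, without genes that follow pancreatic or muscle markers, with a fold limit of 1.5, without each array, and by the methods' analysis of variance with Duncan's test. Promoter windows and their sequences come from RefSeq (GRCm38.p6) and were matched by gene ID for 4820 of the 5856 genes.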

Additional observations from a re-analysis of the deposited data

How the results depend on the processing

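Of the 264 higher and 271 lower calls, the fit with the replicate block called 336 and 357, and 520 of the 535 calls were kept in it; with the 6 arrays alone and the replicate block it called 293 and 331. The block ended the call of Manf among the genes named (adjusted p = 0.0577). Counts moved by over 1.5 times, with no direction reversed among the named genes, in these settings: without both first replicates (522 higher and 700 lower, with 63 genes of larger step to Keap1-HKO and 15 of larger step from Nrf2-null), without these and without genes that follow pancreatic or muscle markers (489 and 699, with 42 and 14), with array quality weights (698 and 844, with 215 and 61), with the 6 arrays alone (73 and 37), by Duncan's test, which is not adjusted over genes (401 and 449), with values raised to 100 (3 genes of larger step from Nrf2-null), and with an intensity trend in limma (10 genes of larger step to Keap1-HKO). Leaving out 1 array at a time gave 168 to 356 higher and 147 to 497 lower calls, 11 to 45 genes of larger step to Keap1-HKO and 1 to 6 of larger step from Nrf2-null, with the lowest counts without Nrf2-null replicate 3, Nrf2-null replicate 2 and the wild-type arrays and the highest without Keap1-HKO replicate 1. The cause was not tested. Of 158 named genes called, 109 were called whichever array was left out, 153 without both first replicates, and 70 with the 6 arrays alone. Genes under an intensity of 100 in a genotype limit the differences that can be measured.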
